A study of Mus musculus with 10 samples.

Results

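Crypt base columnar cells are the slender stem cells wedged between Paneth cells at the bottom of the small intestinal crypt. The 10 genes described here are markers of these cells other than Lgr5, namely Olfm4, Smoc2, Slc12a2, Cdca7, Kcnq1, Rgmb, Aqp4, Igfbp4, Shmt1 and Soat1. They were chosen by name, all 10 were found among the 35006 gene names of the count files, and all 10 passed the filter on low counts that left 13706 genes for testing. Read counts were compared over 5 populations of crypt cells from C57BL6/J mice that carry the EF1a-OSCAR reporter, with 2 libraries per population and 10000 sorted cells per library.

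The reporter is a single transcript from the EF1a promoter at the Rosa26 locus, made ubiquitous by Vasa-Cre deletion of a stop cassette in the germline, so all 5 populations carry the same allele. It encodes mCherry and VeN90, a green fluorescent sensor that is bright where the elongation-linked phosphorylation of RNA polymerase II is low, and the OSCAR signal is the ratio of VeN90 to mCherry. Live EpCAM+ cells were gated as P1 (OSCARlow EF1alow), P2 (OSCARhigh EF1alow), P3 (OSCARlow EF1ahigh), P4 (OSCARmed EF1alow) and P5 (OSCARmed EF1ahigh). The age and sex of the mice are not given in the sources used here, and the labels name no animals, so the p-values below measure the spread between these libraries. Because the gates are defined by a reporter and not by a lineage marker, each library is a mixture, and in such bulk samples fewer cells of a type cannot be told apart from less RNA per cell.

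All 10 markers are protein-coding genes of the GENCODE annotation of NCBIM37 (mm9), the build the counts were made on. Olfm4 lies at chr14:80400109-80422667, Smoc2 at chr17:14416513-14541797, Slc12a2 at chr18:58038332-58106475, Cdca7 at chr2:72314216-72324950, Kcnq1 at chr7:150293159-150612955 and Igfbp4 at chr11:98902558-98913969, all on the plus strand. Rgmb at chr17:15941626-15963550, Aqp4 at chr18:15547903-15562193, Shmt1 at chr11:60601606-60625220 and Soat1 at chr1:158358239-158404459 lie on the minus strand. Only Shmt1 shares exonic bases with another gene in this annotation, 184 bases (4.74% of its exonic length) with Smcr8 on the opposite strand, and since counting ignored strand, reads from that stretch cannot be assigned to either gene.

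Crypt base columnar cells divide about daily under Wnt and R-spondin signals, and their daughters leave the crypt base as transit-amplifying progenitors that become absorptive enterocytes or secretory Paneth, goblet, enteroendocrine and tuft cells. Markers of these stem cells fall into several functional kinds. Olfm4, Smoc2 and Igfbp4 encode secreted proteins (an olfactomedin glycoprotein, a matricellular calcium-binding protein and a binding protein for insulin-like growth factors), Slc12a2, Kcnq1 and Aqp4 encode basolateral carriers of ions and water, and Rgmb encodes a membrane-anchored BMP co-receptor. Cdca7 encodes a chromatin protein that recruits the remodeller Hells, Shmt1 the cytosolic serine hydroxymethyltransferase that feeds folate metabolism and thymidylate synthesis, and Soat1 an enzyme that esterifies cholesterol for storage.

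Promoter sequences show what the markers do and do not share upstream, and 4 are given because their genes make up the most alike pair below (Rgmb and Soat1) and a pair at the other end of the pattern (Cdca7 and Shmt1). Each is the 250 bases before a RefSeq start on GRCm38.p6, written 5′ to 3′ on the gene's strand, and capitals mark the motif searched. They lie at chr2:72475969-72476218 (Cdca7, plus strand), chr11:60811266-60811515 (Shmt1, minus strand), chr17:15831247-15831496 (Rgmb, minus strand, the first of its 3 starts) and chr1:156474329-156474578 (Soat1, minus strand).
Cdca7: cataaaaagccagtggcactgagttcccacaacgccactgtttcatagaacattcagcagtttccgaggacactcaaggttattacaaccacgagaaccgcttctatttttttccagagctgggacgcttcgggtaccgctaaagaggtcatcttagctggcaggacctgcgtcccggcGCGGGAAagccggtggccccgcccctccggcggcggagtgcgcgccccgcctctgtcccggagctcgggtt
Shmt1: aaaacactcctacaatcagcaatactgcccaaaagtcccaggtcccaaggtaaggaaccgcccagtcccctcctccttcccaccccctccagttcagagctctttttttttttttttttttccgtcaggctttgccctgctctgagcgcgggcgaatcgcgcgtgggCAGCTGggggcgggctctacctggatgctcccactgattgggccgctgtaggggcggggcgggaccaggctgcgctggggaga
Rgmb: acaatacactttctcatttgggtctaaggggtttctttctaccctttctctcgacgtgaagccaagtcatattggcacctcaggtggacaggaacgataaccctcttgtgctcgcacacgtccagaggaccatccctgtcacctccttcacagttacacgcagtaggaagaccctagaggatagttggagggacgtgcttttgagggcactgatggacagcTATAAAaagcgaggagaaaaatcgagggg
Soat1: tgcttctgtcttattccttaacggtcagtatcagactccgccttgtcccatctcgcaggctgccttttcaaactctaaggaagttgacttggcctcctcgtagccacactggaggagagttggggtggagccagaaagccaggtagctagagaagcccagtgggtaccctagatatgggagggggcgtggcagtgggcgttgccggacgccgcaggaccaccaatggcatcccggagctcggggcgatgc
The E2F motif GCGGGAA, searched on both strands, was found at -71 in Cdca7 and in 3.82% of all 32851 promoters of this length. The E-box CAGCTG, the same on both strands, was found at -83 in Shmt1 (13% of all promoters), and the TATA motif TATAAA, searched on the gene's strand, at -29 in Rgmb (7.59% of all promoters). The Soat1 window held none of these, nor the TCF/LEF motifs CTTTGA and CTTTGT, which 27.6% of all promoters hold on either strand. These matches describe letters in a window and nothing about binding. The promoters of 6 of the 10 markers were matched and searched. In the windows not printed, TATAAA was also found at -28 in Igfbp4. The TCF/LEF motif CTTTGT was found at -16 from the second Rgmb start.

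The libraries held 3857612 to 6485823 gene counts, and the lowest marker count in any library was 18. Levels below are CPM, the counts per 1e6 counted reads, scaled by the trimmed mean of M values (TMM). The TMM factors differed between gates, at 0.948 and 0.950 for P1, 0.687 and 0.707 for P2 and 0.496 and 0.9685 for P3. They were 1.51 and 1.56 for P4 and 1.36 and 1.49 for P5. The libraries labelled P3 stood apart, with 59.2% and 36.1% of their counts on mitochondrial genes against 1.04 to 5.19% in the other 8. Epcam was present in every library (542 to 1614 CPM). The labels of P2 and P3 were in doubt, since Lyz1, the Paneth cell lysozyme, stood at 265109 and 183581 CPM in the libraries labelled P2 and at 1381 and 699.7 CPM in those labelled P3. Muc2 and Chga, of goblet and enteroendocrine cells, were also highest in those labelled P2, whereas the study's text places secretory cells in the other gate. Another measurement runs with the labels, since the study's staining found the proliferation protein encoded by Mki67 low in OSCARhigh cells. Mki67 stood at 32.3 and 27.7 CPM in the libraries labelled P2 and at 285 and 554 CPM in those labelled P3. The study also reports Tert and Krt19 RNA as enriched in P2. Here Krt19 was called lower in the libraries labelled P2 than in those labelled P3. It was higher in P4 and P5 than in P2 by 1.64 ± 0.38 on the log2 scale (edgeR adjusted p = 0.0087). For Tert, no level or difference between gates is given here, only that its pattern was close to that of Aqp4 (r = 0.98). Aqp4 was called lower in P2 than in P3, which is not a result for Tert. No library was renamed, and if the names were exchanged the results of P2 and P3 would be exchanged with them.

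The crypt base columnar markers were highest in the medium OSCAR gates. Taken over the population means, 8 of the 10 were highest in P4, always followed by P5, and Rgmb and Soat1 were highest in P2. The lowest mean fell in P1 for 5 markers and in P2 for the other 5. Per kilobase of exon, the mean level in P4 and P5 ran from 1716 CPM per kb for Olfm4, through 138 for Slc12a2 and 73.0 for Kcnq1, to 11.6 for Soat1, so Olfm4 transcripts far outnumbered those of the other markers.

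**Figure D1:**
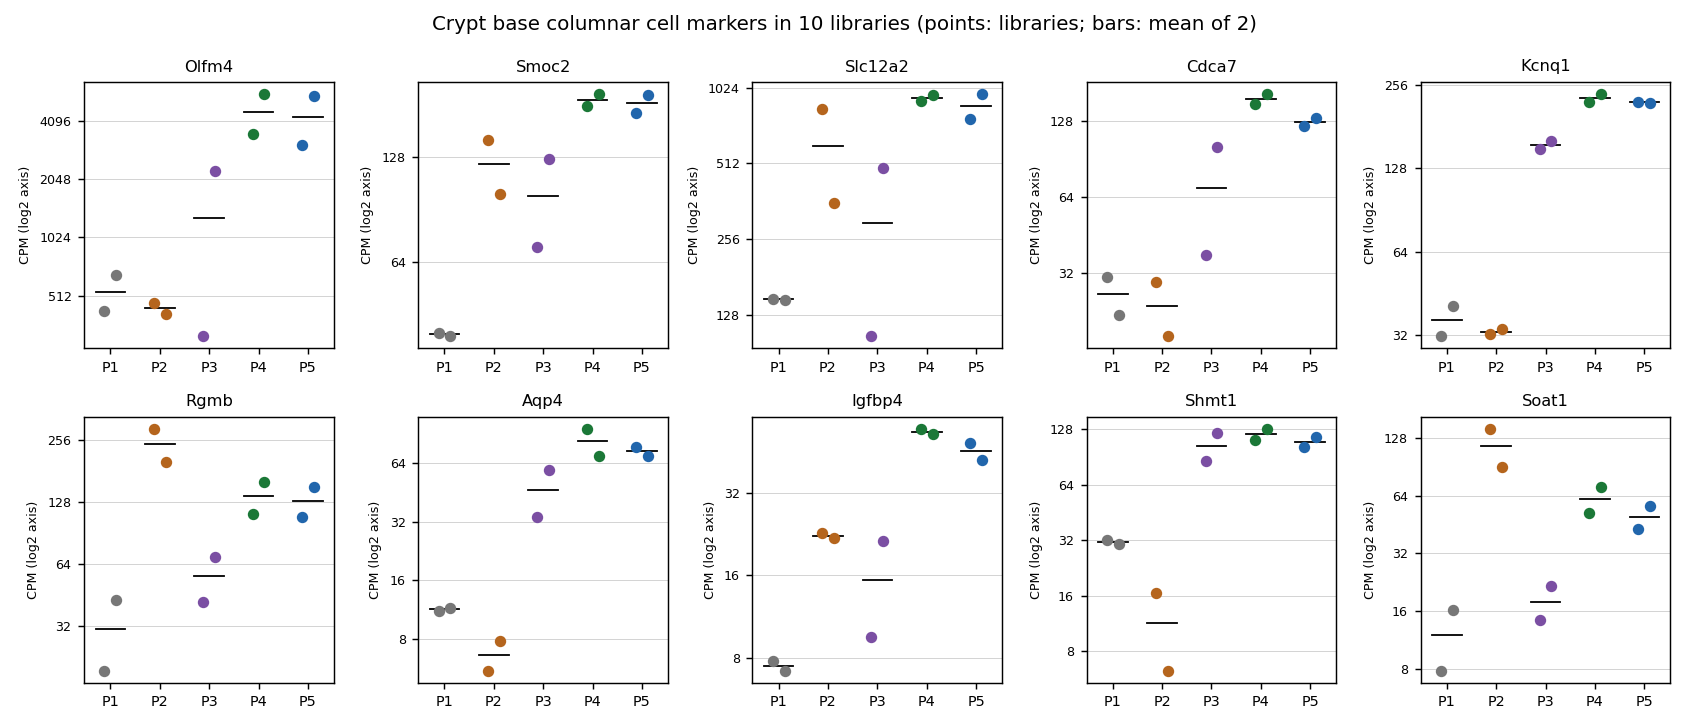
Level of each of the 10 crypt base columnar markers (CPM, log2 axis) in the 10 libraries by population, with points for libraries and bars for the mean of 2. The 4 libraries of P4 and P5 sit above both P1 libraries in all 10 panels, Rgmb and Soat1 peak in P2, and the lower of the libraries labelled P3 is replicate 1 in every panel (the left point of each pair).

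Among the secreted proteins, Olfm4 had the widest span. It stood at 424 and 650.0 CPM for P1, 468 and 411 for P2, 316 and 2246 for P3, 3486 and 5603 for P4, and 3070.2 and 5479.5 for P5. The 4 medium OSCAR libraries lay above the other 6, while the libraries labelled P3 spanned the range from below P1 to near P4. Smoc2 stood at 39.8 and 39.0 CPM for P1, 144 and 100.1 for P2, 70.6 and 127 for P3, 180.2 and 195 for P4, and 172 and 194 for P5. Its P2 and P3 libraries overlapped each other and lay between P1 and the medium OSCAR gates. Igfbp4 stood at 7.79 and 7.19 CPM for P1, 22.9 and 21.9 for P2, 9.56 and 21.3 for P3, 54.5 and 52.2 for P4, and 48.7 and 42.2 for P5. All 5 of its populations were separate, in the order P4, P5, P2, P3 and P1, though P2 and P3 nearly met at 21.9 and 21.3 CPM. The tests below called no difference between P4 and P5, between P2 and P3 or between P3 and P1.

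Among the carriers, Slc12a2, the sodium-potassium-chloride cotransporter, stood at 149 and 147 CPM for P1, 844 and 357 for P2, 106 and 491 for P3, 905 and 961 for P4, and 765 and 962 for P5. Its P2 and P5 libraries overlapped, and so did those of P3 with P1 and P2. Kcnq1, a potassium channel subunit, stood at 31.8 and 40.8 CPM for P1, 32.3 and 33.7 for P2, 151 and 160.3 for P3, 222 and 237 for P4, and 222 and 220.2 for P5. Its replicates lay close together in P3, P4 and P5, and P1 and P2 overlapped at its low level. Aqp4, a water channel, stood at 11.2 and 11.5 CPM for P1, 5.49 and 7.81 for P2, 34.0 and 58.8 for P3, 95.7 and 69.7 for P4, and 77.6 and 69.8 for P5. It was low in both P1 and P2, with P2 below P1, and P4 and P5 overlapped.

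Of the remaining 4, Cdca7 stood at 30.8 and 21.9 CPM for P1, 29.6 and 18.1 for P2, 37.7 and 101 for P3, 150.1 and 163 for P4, and 122 and 132 for P5. Shmt1 stood at 32.2 and 30.4 CPM for P1, 16.5 and 6.24 for P2, 86.5 and 123 for P3, 112 and 128 for P4, and 103 and 116 for P5. Cdca7 was low in P1 and P2 alike, whereas Shmt1 was lower in P2 than in P1 and its P3 libraries overlapped those of P4 and P5. Rgmb, the BMP co-receptor, stood at 19.3 and 42.7 CPM for P1, 290.2 and 202 for P2, 41.9 and 69.5 for P3, 112 and 161 for P4, and 108 and 153 for P5. Soat1 stood at 7.79 and 16.2 CPM for P1, 143 and 90.1 for P2, 14.3 and 21.5 for P3, 52.0 and 70.8 for P4, and 43.0 and 56.8 for P5. In both of these genes P2 was separate from and above the medium OSCAR gates, and P3 overlapped P1.

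To ask how the medium OSCAR gates differ from the OSCARlow EF1alow gate, P4 and P5 were compared with P1 by the quasi-likelihood test of edgeR. P-values were adjusted over all 13706 genes by the Benjamini-Hochberg method, and a gene was called at an adjusted p under 0.01. All 10 markers were higher in P4 and P5 than in P1, where 12.5% of all genes tested were called higher and 18.5% lower. Olfm4 was higher by 3.04 ± 0.76 on the log2 scale (SE, edgeR adjusted p = 0.0097), Aqp4 by 2.78 ± 0.29 (adjusted p = 0.00026) and Igfbp4 by 2.71 ± 0.31 (adjusted p = 0.00033), which are changes of 8.21-fold, 6.86-fold and 6.56-fold. Kcnq1 had the smallest error of the 10, at 2.63 ± 0.19 (edgeR adjusted p = 0.00019). The other 6 were higher by 1.87 ± 0.32 (Shmt1) to 2.60 ± 0.61 (Slc12a2). The median over the markers was 2.51, beside 0.05 over all genes tested. All 4 medium OSCAR libraries lay above both P1 libraries for all 10, which held for 35.5% of all genes in this direction.

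The number of markers called depended on single libraries, most on those of P1. It was 4 without P1 replicate 1 (Aqp4, Igfbp4, Kcnq1 and Smoc2), 6 without P1 replicate 2, 9 without either library labelled P2 (Olfm4 lost) and 8 without any 1 library of P4 or P5 (Olfm4 and Slc12a2 lost). Of these fits without 1 library, Olfm4 kept its call only where a library labelled P3 was left out, and the number of genes called, 4256 with all libraries, ranged from 1618 to 5382 as each library was left out. The fits without a P1 library keep 1 of that population, whose spread is taken from the other populations. P1 also held markers of other cells. The summed level of 12 immune cell genes was 1053 and 305 CPM in P1 against 2.86 to 6.99 CPM in P4 and P5, 9 of the 9 tested were lower in P4 and P5, and the leukocyte gene Ptprc stood at 113 and 25.8 CPM in P1 and at 0.0992 to 1.26 CPM in P4 and P5. The summed level of 16 enterocyte genes was 62451 and 48482 CPM in P1 against 6186 to 25113 in P4 and P5, with 5 of 16 lower in P4 and P5, among them Vil1 and Krt20. The part of these cells in the marker differences was not tested.

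**Figure D2:**
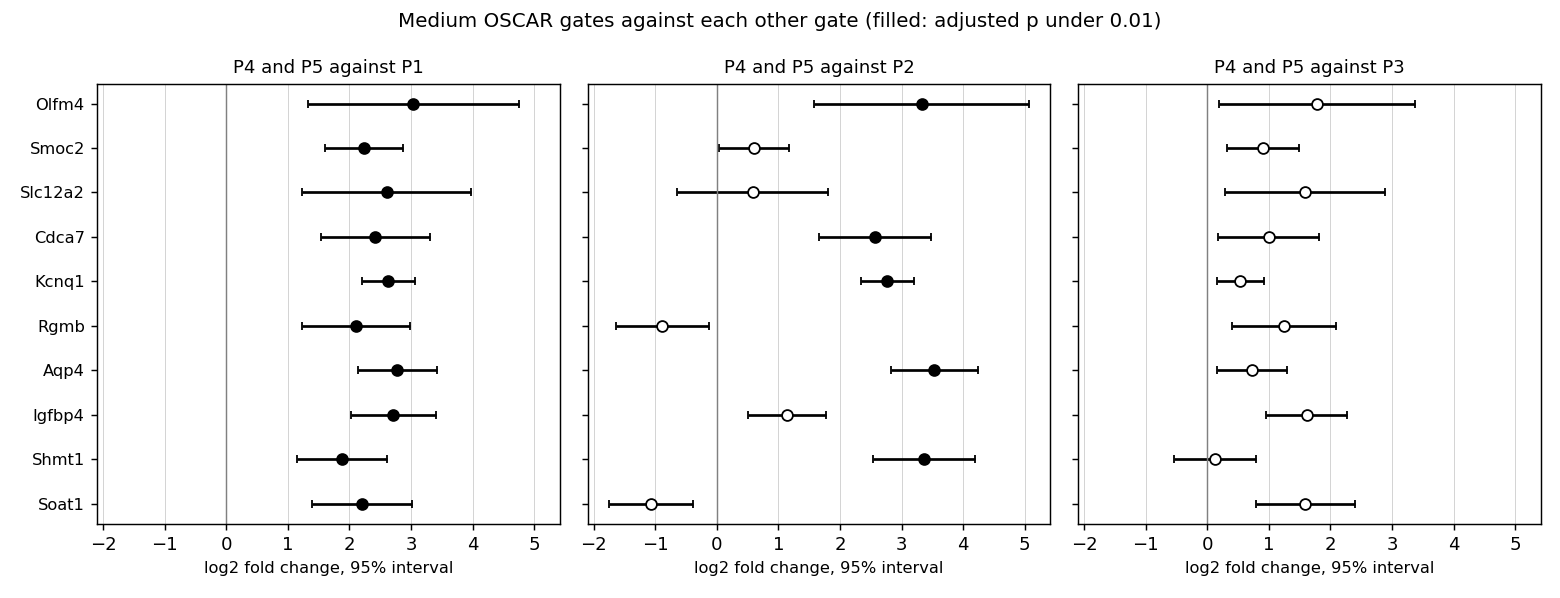
Log2 fold change of each marker in P4 and P5 against each of the other gates as labelled (P1, P2 and P3), with 95% intervals from the edgeR fit and filled points for an adjusted p under 0.01. All 10 points are filled against P1, 5 against P2 and 0 against P3, and Rgmb and Soat1 lie below 0 against P2.

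Against the libraries labelled P2 (OSCARhigh EF1alow), the markers split. Aqp4 was higher in P4 and P5 by 3.53 ± 0.31 (edgeR adjusted p = 0.0001), Shmt1 by 3.37 ± 0.37 (adjusted p = 0.00022), Olfm4 by 3.33 ± 0.77 (adjusted p = 0.0088), Kcnq1 by 2.77 ± 0.19 (adjusted p = 6e-05) and Cdca7 by 2.58 ± 0.40 (adjusted p = 0.0013). These 5 were called higher, where 9.17% of all genes tested were. The 4 medium OSCAR libraries lay above both P2 libraries for these 5 and for Smoc2 and Igfbp4, as 30% of all genes did in this direction. The other 5 were not called in either direction, where 13.3% of all genes were called lower. Igfbp4 missed the threshold at 1.14 ± 0.28 (edgeR adjusted p = 0.011). It passed with DESeq2 (adjusted p = 0.0034), and in edgeR without the filter on low counts (adjusted p = 0.00026), in a fit of P2, P4 and P5 alone (0.0012) and without P3 replicate 1 (0.0008) or 2 (0.00078). Smoc2 differed by 0.60 ± 0.25 (edgeR adjusted p = 0.094) and Slc12a2 by 0.58 with a 95% interval from -0.65 to 1.81.

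Rgmb and Soat1 had negative values against P2. The difference was -0.88 ± 0.34 for Rgmb (edgeR adjusted p = 0.069) and -1.07 ± 0.30 for Soat1 (adjusted p = 0.021), although for both genes the P2 libraries lay above all 4 medium OSCAR libraries, as 33.3% of all genes did in this direction. Both were called lower in P4 and P5 when edgeR was run without the filter on low counts (adjusted p = 0.0029 for Rgmb and 0.00011 for Soat1), and neither was by DESeq2. Aqp4, Kcnq1 and Shmt1 stayed called with each library left out in turn. Olfm4 lost its call without any 1 library of P1, P2, P4 or P5, and Cdca7 without P2 replicate 2. Paneth cell genes moved with this comparison, since their summed level was 583769 and 417327 CPM in P2 against 517 to 11146 CPM in P4 and P5 and 12 of 12 tested were lower in P4 and P5, as were 10 of 11 goblet, 10 of 11 tuft and 14 of 15 enteroendocrine genes. Their part in the marker differences was not tested.

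Against the libraries labelled P3 (OSCARlow EF1ahigh), no marker was called, and edgeR called only 4 of the 13706 genes, 0.0073% of all genes higher and 0.0219% lower. At an unadjusted p under 0.05, 9 of the 10 markers and 2372 genes passed. DESeq2 called 2 markers higher, Igfbp4 and Soat1, and 131 genes. The edgeR differences were positive for all 10, from 0.13 ± 0.30 for Shmt1 (adjusted p = 0.85) to 1.78 ± 0.70 for Olfm4 (adjusted p = 0.25), with a median of 1.12 beside -0.06 over all genes. The medium OSCAR libraries lay above both P3 libraries for every marker but Shmt1, which held for 15.6% of all genes. Lgr5, the defining marker of these stem cells, was called higher than in P1 both in P4 and P5 and in P2. It was also called higher in P2 than in P3, and was not called in P4 and P5 against P2. Lgr5 was the gene called higher in P4 and P5 than in P3, at 4.25 and 9.33 CPM in P3 and 72.0 to 115 CPM in P4 and P5 (3.71 ± 0.32, edgeR adjusted p = 0.0051). No gene was called higher without mitochondrial genes, in a fit of P3, P4 and P5 alone, or with any 1 library left out other than P3 replicate 2.

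Between the libraries labelled P3, replicate 1 was below replicate 2 for all 10 markers, where 48.1% of all genes were. Replicate 1 also had the fewest gene counts, the larger mitochondrial share, 180.5 CPM of immune cell genes against 3.77 in replicate 2, and 35754 CPM of enterocyte genes against 11026. Without replicate 2 the Olfm4 difference between P4 and P5 and P3 was 3.81 and without replicate 1 it was 0.995.

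The medium OSCAR gates P5 (EF1ahigh) and P4 (EF1alow) ask whether the level of the EF1a reporter matters at a given OSCAR signal. Their labels may also differ from a plot in the study, though its text defines both gates as here. The study reads P5 as mainly dividing cells and P4 as stem cells entering the cell cycle. Here all 22 mitosis genes followed had a positive difference in P5 against P4, with 0 called. The values are given by label, and an exchange of the names would turn the sign of every difference between P4 and P5. No gene was called (0%), with 350 genes at an unadjusted p under 0.05 by edgeR and 27 genes called by DESeq2, no marker among either. Every marker had a slightly negative difference, from -0.03 ± 0.28 for Smoc2 to -0.30 ± 0.36 for Soat1, all at an edgeR adjusted p of 1. The 95% interval was narrowest for Kcnq1, from -0.48 to 0.37, and widest for Olfm4, from -1.77 to 1.59. A change of Olfm4 by 2-fold thus lay within the interval of this model, which leaves out the replicate number. The libraries of P5 lay below those of P4 for Cdca7, Kcnq1 and Igfbp4, which held for 15.3% of all genes.

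The 3 outer gates also differed among themselves. In P2 against P1, 4 markers were higher, where 13.9% of all genes were higher and 15.2% lower. They were Soat1 (3.27 ± 0.40, edgeR adjusted p = 0.00046), Rgmb (2.99 ± 0.44, adjusted p = 0.00085), Smoc2 (1.63 ± 0.30, adjusted p = 0.0023) and Igfbp4 (1.57 ± 0.33, adjusted p = 0.0045). Slc12a2 at 2.02 ± 0.64 (edgeR adjusted p = 0.028) and Shmt1 at -1.49 ± 0.38 (adjusted p = 0.011) missed the threshold. Both passed it with DESeq2 (adjusted p = 0.0022 and 0.0026) and in edgeR without the filter on low counts (3.7e-08 and 6.1e-06). They also passed with both libraries labelled P3 left out, an alternative chosen after seeing the data. Only Rgmb and Soat1 kept their calls with each library left out in turn, and the count fell to 2 without either P1 replicate. The P2 libraries lay above both P1 libraries for 5 markers, Slc12a2 among them, and below for Aqp4 and Shmt1, which held for 38.4% and 38.6% of all genes. These comparisons share the P1 and P2 libraries with those above.

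In P3 against P1, which asks the EF1a question at low OSCAR signal, 4 markers were higher, where 8.01% of all genes were higher and 7.54% lower. They were Kcnq1 (2.1 ± 0.20, edgeR adjusted p = 0.0014), Aqp4 (2.05 ± 0.30, adjusted p = 0.0021), Shmt1 (1.75 ± 0.35, adjusted p = 0.0065) and Smoc2 (1.33 ± 0.30, adjusted p = 0.0092). The P3 libraries lay above both P1 libraries for these 4, Cdca7 and Igfbp4, as 28% of all genes did. Without P1 replicate 1 no marker was called, without P1 replicate 2 only Kcnq1, and in a fit of P1 and P3 alone neither a marker nor any gene. Shmt1 and Smoc2 also lost their calls without P3 replicate 2 and without any 1 library of P4 or P5, and Smoc2 with RLE size factors (edgeR adjusted p = 0.014). The change from EF1alow to EF1ahigh differed between medium and low OSCAR signal for Kcnq1, at -2.15 ± 0.27 (edgeR adjusted p = 0.0089), where 0.328% of all genes were called lower and 0.482% higher. This call was lost with any 1 library left out, and the value would change if the names of P2 and P3 or of P4 and P5 were exchanged.

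In P2 against P3, markers were called in both directions. Soat1 (2.66 ± 0.40, edgeR adjusted p = 0.0012) and Rgmb (2.13 ± 0.42, adjusted p = 0.0045) were higher in P2, where 10.4% of all genes were. Shmt1 (-3.24 ± 0.39, edgeR adjusted p = 0.00044), Aqp4 (-2.80 ± 0.33, adjusted p = 0.0004) and Kcnq1 (-2.24 ± 0.20, adjusted p = 0.00017) were lower in P2, where 10.6% of all genes were. The libraries did not overlap for 3 markers higher in P2 (with Igfbp4) and 4 lower (with Cdca7), beside 34.5% and 30.7% of all genes. The 3 lower genes and Soat1 kept their calls with each library left out, while Rgmb lost its call without P2 replicate 1, P2 replicate 2 or P3 replicate 1.

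The markers therefore did not share a single pattern over the 10 libraries. Over the 45 pairs, Pearson's r of log2 CPM had a median of 0.74 and ran from -0.22 for Shmt1 with Soat1 to 0.99 for Rgmb with Soat1, with 10 pairs over 0.9 and 3 below 0. These are descriptions over points that share populations and library depth. Shmt1, Aqp4, Kcnq1 and Cdca7 had r of 0.87 or more with each other, as did Igfbp4, Smoc2 and Slc12a2 at 0.93 or more, and Olfm4 lay closest to Cdca7 (0.94).

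**Figure D3:**
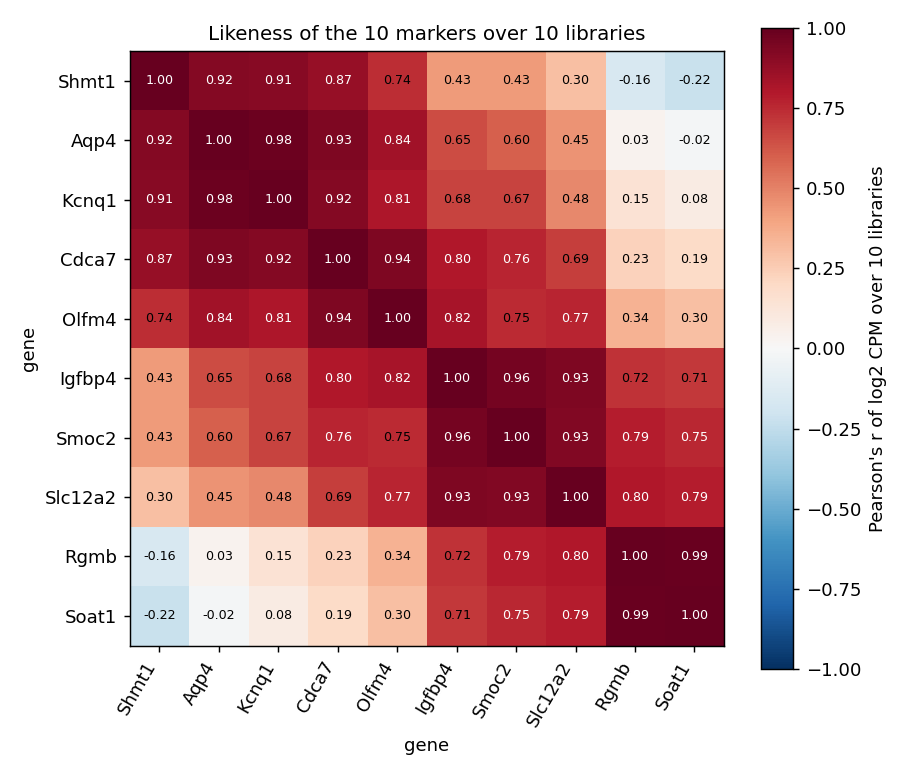
Pearson's r of log2 CPM over the 10 libraries for each pair of the 10 markers, from -1 in blue to 1 in red. Shmt1, Aqp4, Kcnq1 and Cdca7 form a red block, Igfbp4, Smoc2 and Slc12a2 another, and Rgmb and Soat1 have r of 0.99 with each other and at most 0.23 with Shmt1, Aqp4, Kcnq1 and Cdca7.

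Among all genes tested, the 3 most like each marker over the 10 libraries had r of 0.96 or more. For Rgmb they were Soat1 (0.99), the Wnt receptor ligase Znrf3 (0.98) and the RNA-binding protein gene Msi1 (0.98), and for Soat1 they were Rgmb, Znrf3 (0.98) and Tnip2 (0.98). The telomerase gene Tert was among those of Aqp4 (0.98), with Cpsf1 (0.98) and Kcnq1 (0.98). Those of Cdca7 were Ankrd10 (0.99) and the nucleotide synthesis genes Dctd (0.97) and Gart (0.97), and those of Olfm4 were Dtl (0.99), RP23-349B4.7 (0.98) and Bcl2l12 (0.97). Those of Shmt1 were Coq6 (0.99), Agmat (0.99) and the urea cycle gene Cps1 (0.98), and those of Kcnq1 were Ptprd (0.99), Hspg2 (0.99) and Bcl11b (0.98). Ercc2, Ppp1r9a and Nat10 were most like Smoc2 (each 0.98), Cramp1l (0.98), Mtrr (0.96) and Fnbp4 (0.96) most like Igfbp4, and Gm17296, Fhod1 and Rps6ka6 most like Slc12a2 (each 0.97).

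The markers work with known partners and have relatives in the same families, and 55 of these were followed, of which 37 passed the filter on low counts. Of the 37, 17 were higher and 2 lower in P4 and P5 than in P1, where 12.5% of all genes tested were higher and 18.5% lower. Against P2, 10 were higher and 5 lower, beside 9.17% and 13.3% of all genes. There were 0 called against P3 or between P5 and P4. The partners of Kcnq1 in chloride secretion were high in P3, P4 and P5. Kcne3, the subunit that holds Kcnq1 open, stood at 23.7 and 30.8 CPM in P1, 53.0 and 27.2 in P2, and 94.0 to 149 CPM in P3, P4 and P5 (2.19 ± 0.33 for P4 and P5 against P1, edgeR adjusted p = 0.00093). Kcne1 and Kcne2 were at 0 in every library and Kcne4 in all but P4 replicate 1 (0.123 CPM). Cftr, the apical chloride channel, stood at 65.4 and 61.2 CPM in P1, 27.1 and 15.4 in P2, and 248 to 452 CPM in P3, P4 and P5 (3.76 ± 0.35 for P4 and P5 against P2, edgeR adjusted p = 0.00012). By contrast, the relative Slc12a8 stood at 433 and 429 CPM in P2 and at 73.1 to 101 CPM in P4 and P5 (-2.30 ± 0.23, edgeR adjusted p = 0.00016), and the kinase gene Oxsr1, whose product activates Slc12a2, was lower in P4 and P5 than in P1 (-1.20 ± 0.17, adjusted p = 0.00069).

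The chromatin partners of Cdca7 were low where Cdca7 was low. Hells stood at 11.5 and 8.87 CPM for P1, 5.49 and 3.79 for P2, 17.5 and 57.1 for P3, 49.3 and 55.5 for P4, and 38.3 and 54.8 for P5 (2.27 ± 0.44 for P4 and P5 against P1, edgeR adjusted p = 0.0028). Uhrf1, which guides maintenance of DNA methylation, was higher in P4 and P5 than in P2 by 4.65 ± 0.56 (edgeR adjusted p = 0.00033) and the paralog Cdca7l by 3.65 ± 0.29 (adjusted p = 7.7e-05). The maintenance methyltransferase gene Dnmt1 was higher by 2.11 ± 0.38 (edgeR adjusted p = 0.0025).

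The folate enzymes did not move together. Tyms and Mthfd1, which act with Shmt1 in the cytosol, were higher in P4 and P5 than in P2 by 2.27 ± 0.32 (edgeR adjusted p = 0.00077) and 1.99 ± 0.21 (adjusted p = 0.00019). The mitochondrial enzyme genes had the opposite sign, with Mthfd2 at 152 and 135 CPM in P2 and 17.3 to 23.1 CPM in P4 and P5 (-2.74 ± 0.19, edgeR adjusted p = 5.9e-05), while Shmt2, at 114 and 58.7 CPM in P2 and 45.5 to 65.7 CPM in P4 and P5, was not called (-0.66 ± 0.28, adjusted p = 0.097).

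For the remaining markers, the Rgmb receptor gene Neo1 was higher in P4 and P5 than in P1 by 1.56 ± 0.23 (edgeR adjusted p = 0.00085) and differed by 0.30 ± 0.21 from P2 (adjusted p = 0.31). Soat2, the relative of Soat1, stood at 89.5 and 80.3 CPM in P1, 32.3 and 39.9 in P2 and 52.5 to 134 in the other 6 libraries, and was called in none of these comparisons (0.05 ± 0.32 against P1, edgeR adjusted p = 0.92). Igf1r, a receptor for the growth factors that Igfbp4 binds, was higher in P4 and P5 than in P1 by 2.19 ± 0.33 (edgeR adjusted p = 0.00088), at 13.8 to 19.8 CPM against 3.56 and 3.51. Igfbp4 was the only Igfbp gene of the 7 followed that passed the filter, and the highest value among the other 6 was 3.79 CPM, for Igfbp5.

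**Figure D4:**
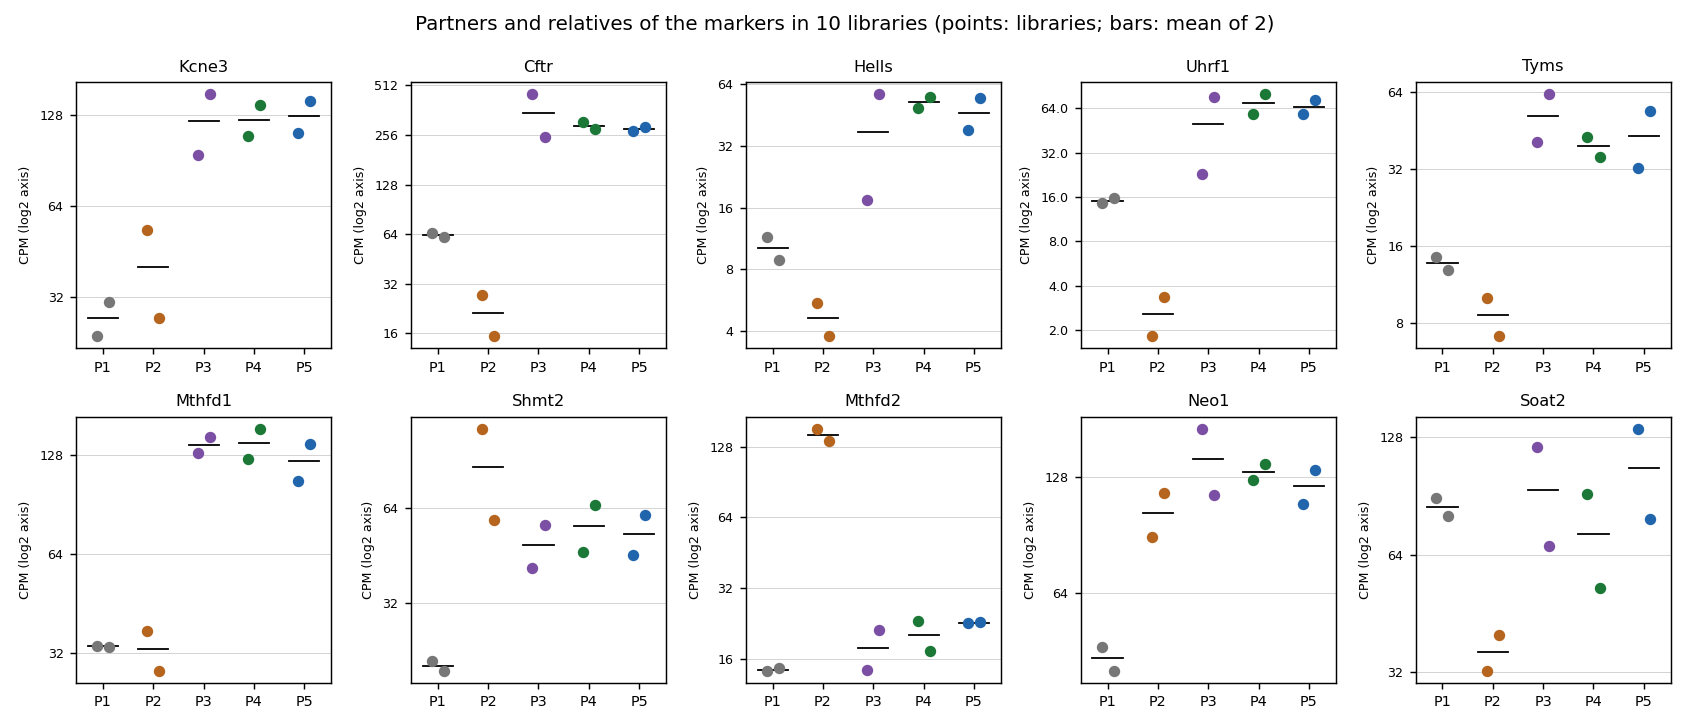
Level of 10 partners and relatives of the markers (CPM, log2 axis) in the 10 libraries by population, with points for libraries and bars for the mean of 2. Kcne3, Cftr, Hells, Uhrf1, Tyms and Mthfd1 are lower in P1 and P2 than in most libraries of the other gates, while Mthfd2 and the mean of Shmt2 are highest in P2.

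Set beside 24 other stem cell genes, the markers gave the same direction against P1 and a different balance against P2. Of these 24, 17 were higher and 1 was lower (Sp5) in P4 and P5 than in P1, beside 12.5% and 18.5% of all genes. Among those higher were Tnfrsf19 (3.81 ± 0.73, edgeR adjusted p = 0.0027) and Nav1 (3.54 ± 0.58, adjusted p = 0.0013). Fstl1 was also called, from 0 in both P1 libraries and at most 3.27 CPM elsewhere. Against P2, 2 were higher, Ascl2 (2.71 ± 0.48, edgeR adjusted p = 0.0022) and Lrp4, and 3 were lower, Phlda1 (-2.66 ± 0.36, adjusted p = 0.00058), Ephb3 (-2.20 ± 0.30, adjusted p = 0.00068) and Sox9. The 10 markers thus held 5 genes higher and 0 lower in that comparison, beside 2 and 3 of the 24 and 9.17% and 13.3% of all genes. The difference between the lists was not tested.

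Cell cycle genes differed between the gates too. Of 22 DNA replication genes, 11 were higher in P4 and P5 than in P1 and 17 than in P2. Of 22 mitosis genes 16 were higher than in P1 and 21 than in P2, where Plk1 alone was lower. Over all genes, 12.5% were higher than in P1 and 9.17% than in P2. In both lists 0 were called against P3 or between P5 and P4. The summed mitosis level was 1032 and 1105 CPM in P4 and 2224 and 3579 in P5, whereas the summed marker level was 5370.1 and 7641 CPM in P4 and 4732 and 7426 in P5. Olfm4 alone held 3486 and 5603 CPM of the marker sum in P4 and 3070.2 and 5479.5 CPM in P5. In P2 the summed level was 344 and 261 CPM for mitosis beside 1996 and 1247 for the markers. Plk1 alone held 229 and 161 CPM of the mitosis sum in P2. In P3 the summed level was 1510 and 2377 CPM for mitosis, above both P4 libraries, beside 867 and 3419 for the markers. Of the 22 mitosis genes, 14 were higher in P3 than in P1, as were 8.01% of all genes.

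**Figure D5:**
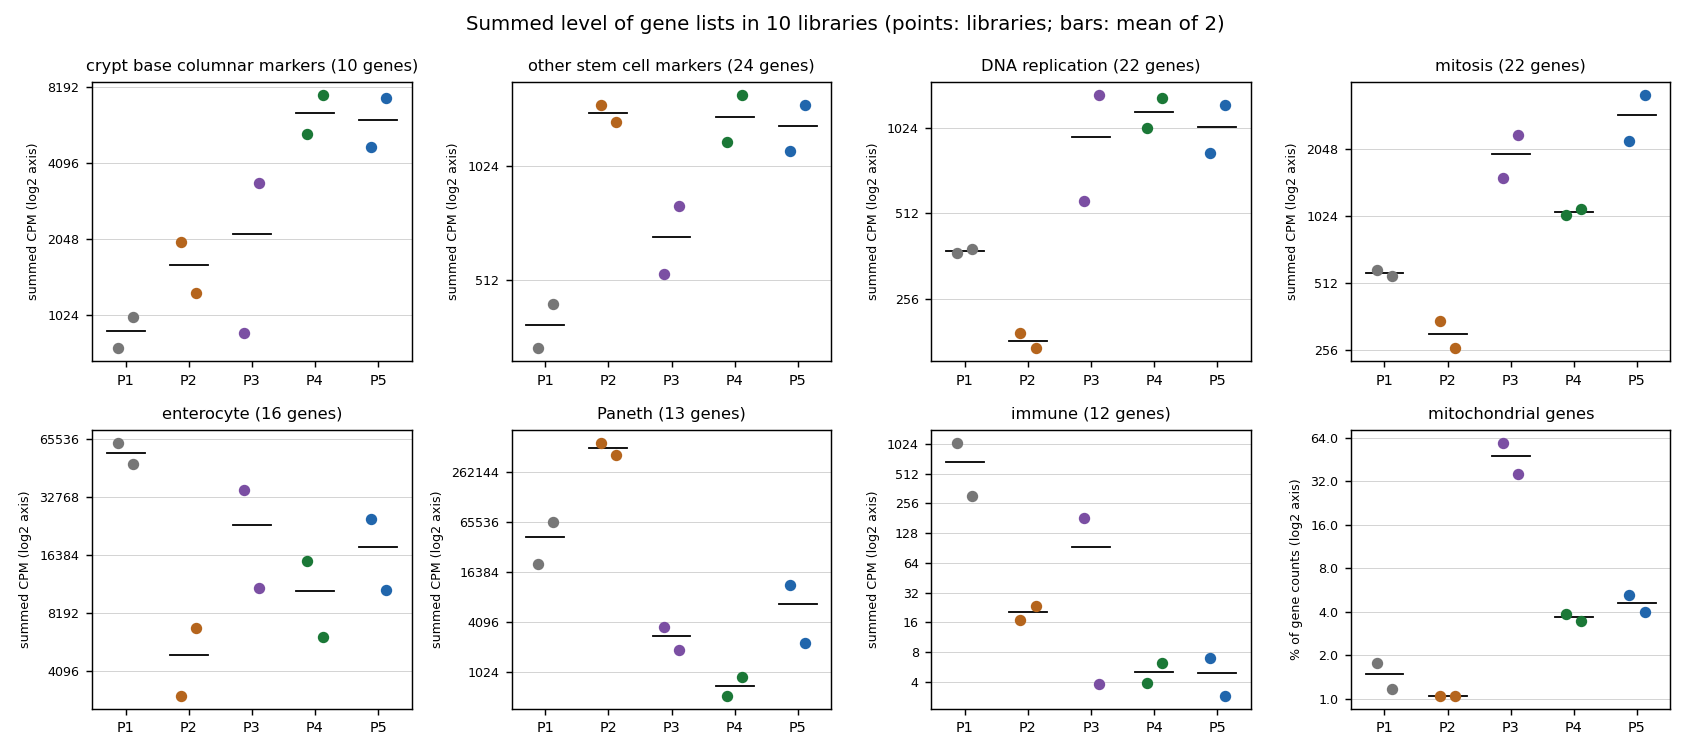
Summed CPM of the 10 markers and of 6 other gene lists, and the percent of gene counts on mitochondrial genes (log2 axes), in the 10 libraries by population, with points for libraries and bars for the mean of 2. Immune and enterocyte genes are highest in P1, Paneth genes in P2 and mitochondrial genes in P3. The marker sum is at 4732 CPM or more in all 4 libraries of P4 and P5 and at 3419 CPM or less elsewhere. Olfm4 alone holds 3070 to 5603 CPM of that sum in P4 and P5, whereas Rgmb and Soat1 are highest in P2.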

How the data were processed

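Poly-A RNA of 5 sorted crypt populations, 2 libraries each, was sequenced after a library preparation that does not mark strand. The authors mapped reads with TopHat2 2.1.0 to mm9 and deposited raw counts per gene from HTSeq 0.11.2, made on exons without regard to strand. Reads with several alignments and other rows that name no gene (18.7 to 44.3% of each file's total) were left out, as were 206 rRNA gene names, the study's own step. Low counts were filtered with filterByExpr of edgeR 4.0.16 (R 4.3.3) and TMM factors were computed. A model with a mean for each of the 5 populations used all 10 libraries (5 residual degrees of freedom), and contrasts were tested with the quasi-likelihood test and Benjamini-Hochberg adjustment over all genes tested, at the study's threshold of 0.01. Standard errors were derived from the F statistics. The procedure was tested on simulated counts in which all populations shared a mean profile apart from the genes set to change. Differences in composition such as those between these gates were therefore not covered. A count of 3, the limit that a count of 0 allows, is 4.63e-05 to 7.78e-05% of a library, and covers counting error only.

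The markers and gene lists were chosen with earlier results of these data known. Genes named are the 10 markers, the 3 genes most like each by Pearson's r, up to 3 genes of each list with the largest change among those called in P4 and P5 against P1 or P2, partners beside their marker, and Lyz1, Muc2, Chga, Dclk1, Vil1, Krt20, Ptprc, Lgr5 and mitochondrial genes as checks of the labels. Alternatives were relative log expression (RLE) size factors, DESeq2 1.42.0, no filter, a threshold of 0.05, a replicate block, rRNA kept, no mitochondrial genes, fits of the populations compared alone, each library left out and, added after seeing the data, both libraries labelled P3 left out.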

Additional observations from a re-analysis of the deposited data

Results flagged for a closer look

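Kcnq1 was singled out because the effect of the EF1a gate differed between OSCAR levels in a test of the difference itself. The change from EF1alow to EF1ahigh was -0.05 ± 0.19 at medium OSCAR signal (P5 against P4) and 2.1 ± 0.20 at low OSCAR signal (P3 against P1), a difference of -2.15 on the log2 scale (SE 0.27, edgeR adjusted p = 0.0089). With any 1 library left out, the value stayed between -2.37 and -1.97 and neither Kcnq1 nor any other gene was called. In a fit of P1, P3, P4 and P5 alone it also missed the threshold (edgeR adjusted p = 0.010). The difference rests on the libraries labelled P3, whose label is in doubt, and on P4 and P5, whose labels may be.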

How the results depend on the processing

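Of 1480 recomputed values of single markers, 1327 kept their direction and their side of the threshold. Called genes rose at an adjusted p under 0.05 to 6657 in P4 and P5 against P1, 5041 against P2 and 12 against P3, 6462 in P2 against P1, 4652 in P3 against P1, 5114 in P2 against P3 and 2370 (4 markers) in the difference between P5 against P4 and P3 against P1. With DESeq2 they were 131 (2 markers) for P4 and P5 against P3, 27 for P5 against P4, 3497 for P3 against P1 and 2002 (3 markers) for that difference. Without the filter on low counts, edgeR called 4464 of 21996 genes for P4 and P5 against P2. Among them were 8 markers (6 higher, and Rgmb and Soat1 lower). That setting gave 525 genes (7 markers) against P3, 194 for P5 against P4 and 4005 for P3 against P1. It gave 4439 (8 markers) for P2 against P3 and 2298 (5 markers) for the difference. In fits of the populations compared alone, called genes fell to 0 for P4 and P5 against P3, 0 (0 markers) for P3 against P1, 1093 for P2 against P3 and 0 (0 markers) for the difference. RLE size factors gave 362 genes for the difference, and Olfm4 in P4 and P5 against P1 missed the threshold (edgeR adjusted p = 0.011). Without mitochondrial genes the median of all genes moved from 0.05 to 0.24 in P4 and P5 against P1 and from 0.01 to 0.16 in P2 against P1, 0 genes were called against P3 and 375 for the difference, the share of calls that were higher in the difference moved from 59.5 to 44.5%, and P2 against P1 turned to 0.0016 for Cdca7 and 0.0041 for Kcnq1. Apart from the settings that add or remove genes or samples, the cause was not tested.

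Leaving out each library in turn, the markers called ranged from 4 to 10 for P4 and P5 against P1, 3 to 6 against P2, 0 against P3, 0 for P5 against P4, 2 to 6 for P2 against P1, 0 to 6 for P3 against P1, 4 to 6 for P2 against P3 and 0 for the difference, where 1 was called with all libraries. Genes called ranged from 1618 to 5382, 1227 to 3939, 0 to 21, 0, 1576 to 5046, 0 to 2126, 1348 to 2605 and 0 in the same order. Uncalled differences of markers changed sign for Shmt1 in P4 and P5 against P3 (-0.0749 to 0.416), for 6 markers in P5 against P4 (Olfm4 -0.56 to 0.30, Rgmb -0.33 to 0.23, Aqp4 -0.368 to 0.083, Slc12a2 -0.283 to 0.0532, Smoc2 -0.119 to 0.0612, Kcnq1 -0.0927 to 0.0018), in P2 against P1 (Cdca7 -0.54 to 0.18, Olfm4 -0.585 to 0.0555, Kcnq1 -0.326 to 0.0568) and, without a library labelled P3, in P3 against P1 (Olfm4 -0.74 to 2.08, Slc12a2 -0.46 to 1.74), P2 against P3 (Smoc2 -0.0632 to 0.765, Olfm4 -2.36 to 0.45) and the difference (Olfm4 -2.17 to 0.64, Slc12a2 -1.86 to 0.34).

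The replicate numbers are shared across populations, and the labels do not say what libraries with the same number share. Departures of such libraries from the mean of their population correlated with a median of 0.2549 over the 10 pairs of populations. The lowest was -0.0598 (P2 with P3), the highest 0.5539 (P4 with P5), and all but the lowest were positive. The numbers were left out of the main model, and whether they pair the libraries was not tested. With a replicate block in the model, called genes rose to 4858 in P4 and P5 against P1 and 3473 against P2. They were 4519 in P2 against P1, 2597 in P3 against P1 and 3231 in P2 against P3. The block also gave 1 gene for P5 against P4 and 593 for the difference. Igfbp4 was called against P2, making 6 markers there, and in no other comparison did the number of markers called change.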
